A study of Homo sapiens with 65 samples.

Results

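CYBB, CYBA, NCF1, NCF4 and RAC2 encode subunits of the phagocyte NADPH oxidase, and their transcripts were followed through the in vitro differentiation of human embryonic stem cells. They were matched by symbol to the Ensembl identifiers of the deposited fragment counts, and make up 5 of the 58302 genes counted. All are read on the GRCh38 assembly. CYBB (ENSG00000165168) lies on the plus strand of chromosome X at 37780011 to 37813461, and CYBA (ENSG00000051523) on the minus strand of chromosome 16 at 88643283 to 88651152. NCF1 (ENSG00000158517) lies on the plus strand of chromosome 7 at 74773962 to 74789315. On chromosome 22, NCF4 (ENSG00000100365) is on the plus strand at 36860988 to 36878015 and RAC2 (ENSG00000128340) on the minus strand at 37225261 to 37244448.

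The phagocyte oxidase moves electrons from NADPH across a membrane to oxygen and makes superoxide, which neutrophils and macrophages use against ingested microbes. CYBB is the catalytic, haem-bearing chain, also called NOX2, and CYBA is the small membrane chain that holds it stable. In resting cells the organiser NCF1 and the lipid-binding NCF4 wait in the cytosol, and on stimulation they join the membrane chains together with a RAC GTPase, which in blood cells is mostly RAC2. Inherited loss of CYBB, CYBA, NCF1 or NCF4 causes chronic granulomatous disease. CYBA also serves other NADPH oxidases, and RAC2 also steers the actin skeleton of blood cells, so neither is restricted to this enzyme.

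The 65 libraries of total RNA came from the H9 embryonic stem cell line carrying SOX17 mCHERRY and RUNX1C GFP reporters (WT, 41 libraries), and from a derivative of it in which CRISPR removed the DNA-binding domain of RUNX1 (KO, 24 libraries). RUNX1 is a transcription factor that endothelium needs to form blood cells. The libraries fall into 19 groups. The mesoderm protocol used STAPEL medium with BMP4, ACTIVIN A, VEGF, SCF and FGF2, with SB431542 and CHIR from day 2 to day 4, and VEGF, SCF, FGF2 and IGF2 afterwards. Unsorted WT and KO cells were taken on days 0, 2 and 4, with 4 libraries per line and day. On day 7, cells positive for CD34 and negative for CD43 were sorted by SOX17 into SOX17+ cells (4 WT, 4 KO) and SOX17- cells (4 WT, 3 KO). CD34 marks endothelium and blood progenitors, SOX17 arterial endothelium, and CD43 the surface of early blood cells.

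On day 12, CD34+ cells were sorted into SOX17+ CD43- cells (4 WT, 4 KO), SOX17- CD43- cells (a lone KO library, entered in no test), SOX17+ CD43+ cells (2 WT) and SOX17- CD43+ cells (3 WT). No library of the series holds sorted CD43+ cells of the KO line. An endoderm protocol, with ACTIVIN A, CHIR and PI-103 and then ACTIVIN A and DMH-1, gave 3 unsorted WT libraries on each of days 0, 2, 4 and 7. Each genotype is a single cell line, and nothing in the labels says that libraries of a group came from separate cultures, so p-values measure the spread between these libraries. For the KO libraries of days 2 and 4 the deletion is missing from the genetic-modification entry, and they are called KO here from their titles alone.

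Library totals ran from 10366048 to 19081031 counted fragments. RUNX1, counted over its whole length and so partly outside the deleted domain, averaged 36.4 CPM (counts scaled to a common library total) in KO and 108 in WT SOX17+ cells of day 7, and 14.8 and 60.9 in those of day 12. In unsorted cells RUNX1 did not separate the lines, and on day 4 it ranged from 2.96 to 64.8 CPM in KO and from 28 to 65.5 in WT libraries. Summed CPM of 5 pan-leukocyte markers (PTPRC, SPN, LCP1, CORO1A, LAPTM5) was 132 to 164 in the WT SOX17+ CD43- cells of day 12, 1168 to 1421 in SOX17+ CD43+ cells and 2843 to 3145 in SOX17- CD43+ cells, with counts of every marker in the first of these groups too. Summed endothelial markers were 10655 to 13150, 5713 to 5873 and 106 to 289 CPM in the same order. Most of the pan-leukocyte sum in the CD43- cells was LAPTM5, at a mean of 134 CPM. There PTPRC averaged 0.845, SPN 2.44, LCP1 11.4 and CORO1A 3.10 CPM. In SOX17- CD43+ cells the means were 310 for LAPTM5, 220 for PTPRC, 435 for SPN, 1534 for LCP1 and 492 for CORO1A. In bulk RNA, fewer cells of a type and less RNA per cell cannot be told apart.

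By group mean all 5 genes were highest in the CD43+ cells of day 12, and highest of all in the SOX17- CD43+ fraction. In that fraction each was higher than in the WT SOX17+ CD43- cells of the same day (5 of 5 by edgeR's quasi-likelihood test with Benjamini-Hochberg adjusted p below 0.05), where 32.3% of the 22978 genes tested were called higher. In the SOX17+ CD43+ fraction 5 of 5 were likewise called higher, against a background of 15.5%. These counts are descriptions, since in the sorted libraries CYBB, NCF1 and NCF4 passed the filter on low counts only through the CD43+ groups where they were high. In fits of the compared groups alone NCF1 did not pass it against CD43- cells for either CD43+ fraction, and CYBA, RAC2, CYBB and NCF4 did. The sizes differed widely between subunits. Mean CPM of CYBA was 2.56-fold higher in SOX17- CD43+ and 1.56-fold higher in SOX17+ CD43+ cells, and that of CYBB 5386-fold and 802-fold. Mitochondrial genes took 4.25 to 5.24% of counts in the CD43- libraries, 6.46 to 7.23% in SOX17+ CD43+ and 8.37 to 8.85% in SOX17- CD43+ libraries, and their part in these differences was not tested.

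CYBB, the catalytic chain, was read at 0.111, 0.194, 0.169 and 0.203 CPM in the 4 WT SOX17+ CD43- libraries of day 12. It was at 101 and 171 CPM in the SOX17+ CD43+ libraries and at 589, 847 and 1301 CPM in the SOX17- CD43+ libraries. The 3 fractions did not overlap, and the spread within the CD43+ fractions was wide. Against the CD43- cells, the log2 difference in edgeR's quasi-likelihood fit was 12.35 ± 0.36 (SE, adjusted p = 5.72e-20) in SOX17- CD43+ cells and 9.54 ± 0.36 (adjusted p = 7.95e-17) in SOX17+ CD43+ cells. The CD43- level rests on 11 counts over 4 libraries.

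The base sequence just upstream of the RefSeq starts of CYBB and NCF1 is shown because both genes peaked in the CD43+ cells and share a PU.1-like core there. PU.1 is the product of SPI1 and drives many myeloid genes through purine-rich sites holding GAGGAA. The lines give RefSeq promoter sequence of GRCh38.p14 on the plus strand, 5′ to 3′, and the capitals mark TTCCTC, which reads GAGGAA on the other strand.
CYBB, chrX:37779999-37780028: tgctgttttcatTTCCTCattggaagaaga
NCF1, chr7:74773954-74773983: gacaaaagcgacTTCCTCtttccagtgcat

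The capitals begin 48 bases upstream of the RefSeq start of CYBB and 45 bases upstream of that of NCF1. Both RefSeq starts lie downstream of the GENCODE 29 gene starts given in the opening, so the capitals fall within the GENCODE bounds of the genes. CYBA, the third member with a promoter entry, held no GAGGAA on either strand of its 250 upstream bases. GAGGAA was found in 23.6% of 35116 promoters searched in the same window, and a match is a description of letters, not a binding site. The RUNX core TGTGGT was in none of the 3 windows and in 11% of all. Of the 3 windows only that of CYBB held AGATAA, the core read by GATA factors (9.17% of all), and only it held TTGNNNAA, a pattern like that of C/EBP factors (30.2% of all). No binding was measured. SPI1 itself averaged 2.08 CPM in SOX17+ CD43- cells, 79.8 in SOX17+ CD43+ cells and 184 in SOX17- CD43+ cells of WT day 12.

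CYBA, the stabilising chain, was present in every library of the series. On day 12 it was read at 22.8, 21.3, 20.8 and 23.3 CPM in WT SOX17+ CD43- cells, at 35.8 and 32.9 CPM in SOX17+ CD43+ cells, and at 49.9, 59.8 and 59.4 CPM in SOX17- CD43+ cells. The fractions did not overlap, but the steps were small beside those of CYBB. The log2 difference from CD43- cells was 1.35 ± 0.12 (SE, edgeR's quasi-likelihood test, adjusted p = 1.63e-10) in SOX17- CD43+ cells and 0.58 ± 0.14 (adjusted p = 0.00211) in SOX17+ CD43+ cells. The latter call rests on 2 libraries and was lost without SOX17+ CD43+ replicate 1 (adjusted p = 0.0596).

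NCF4, which binds the phosphoinositide of the phagosome membrane, had 2, 11, 9 and 4 counts in the WT SOX17+ CD43- libraries of day 12 (0.111, 0.711, 0.508 and 0.270 CPM). It reached 20.9 and 29.2 CPM in the SOX17+ CD43+ libraries and 52.5, 69.9 and 52.2 CPM in the SOX17- CD43+ libraries. The fractions were again apart, with log2 differences from CD43- cells of 5.89 ± 0.37 (SE, edgeR, adjusted p = 3.01e-11) and 7.16 ± 0.35 (adjusted p = 4.43e-14). An antisense gene, NCF4-AS1, shares exons with it and had 47 counts in the SOX17+ CD43+ and 221 in the SOX17- CD43+ libraries, and 0 elsewhere. Whether counting used the strand is not stated in the sources used here, so reads of the pair cannot be told apart.

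NCF1, the organiser, was at the edge of detection. It had 8, 14 and 19 counts in the SOX17- CD43+ libraries (0.512, 0.853 and 1.13 CPM), 1 and 3 counts in the SOX17+ CD43+ libraries, and 0 in all 4 WT SOX17+ CD43- libraries. Set against a floor of 3 counts over the CD43- group, this is at least 18.4-fold higher in SOX17- CD43+ cells (edgeR, adjusted p = 3.32e-05) and at least 3.28-fold higher in SOX17+ CD43+ cells (adjusted p = 0.0425). The latter call rests on 4 counts in all and was not made by DESeq2 (adjusted p = 0.242), by limma (0.275), without SOX17+ CD43+ replicate 2 (0.27) or without any CD43- library (0.0632 to 0.0713). NCF1 has near-identical pseudogene copies, NCF1B and NCF1C, which can take its reads. The SOX17- CD43+ libraries together held 41 counts of NCF1, 27 of NCF1B and 57 of NCF1C, and the split between the copies is uncertain.

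RAC2, the blood-cell GTPase of the complex, was at 3.01, 8.53, 7.28 and 5.88 CPM in WT SOX17+ CD43- cells of day 12. It was at 99.3 and 113 CPM in SOX17+ CD43+ cells and at 187, 171 and 160 CPM in SOX17- CD43+ cells. The groups did not overlap, and the log2 differences from CD43- cells were 4.04 ± 0.27 (SE, edgeR, adjusted p = 4.37e-12) and 4.79 ± 0.26 (adjusted p = 5.67e-15). Its SOX17- CD43+ libraries lay close together, unlike those of CYBB.

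**Figure D1:**
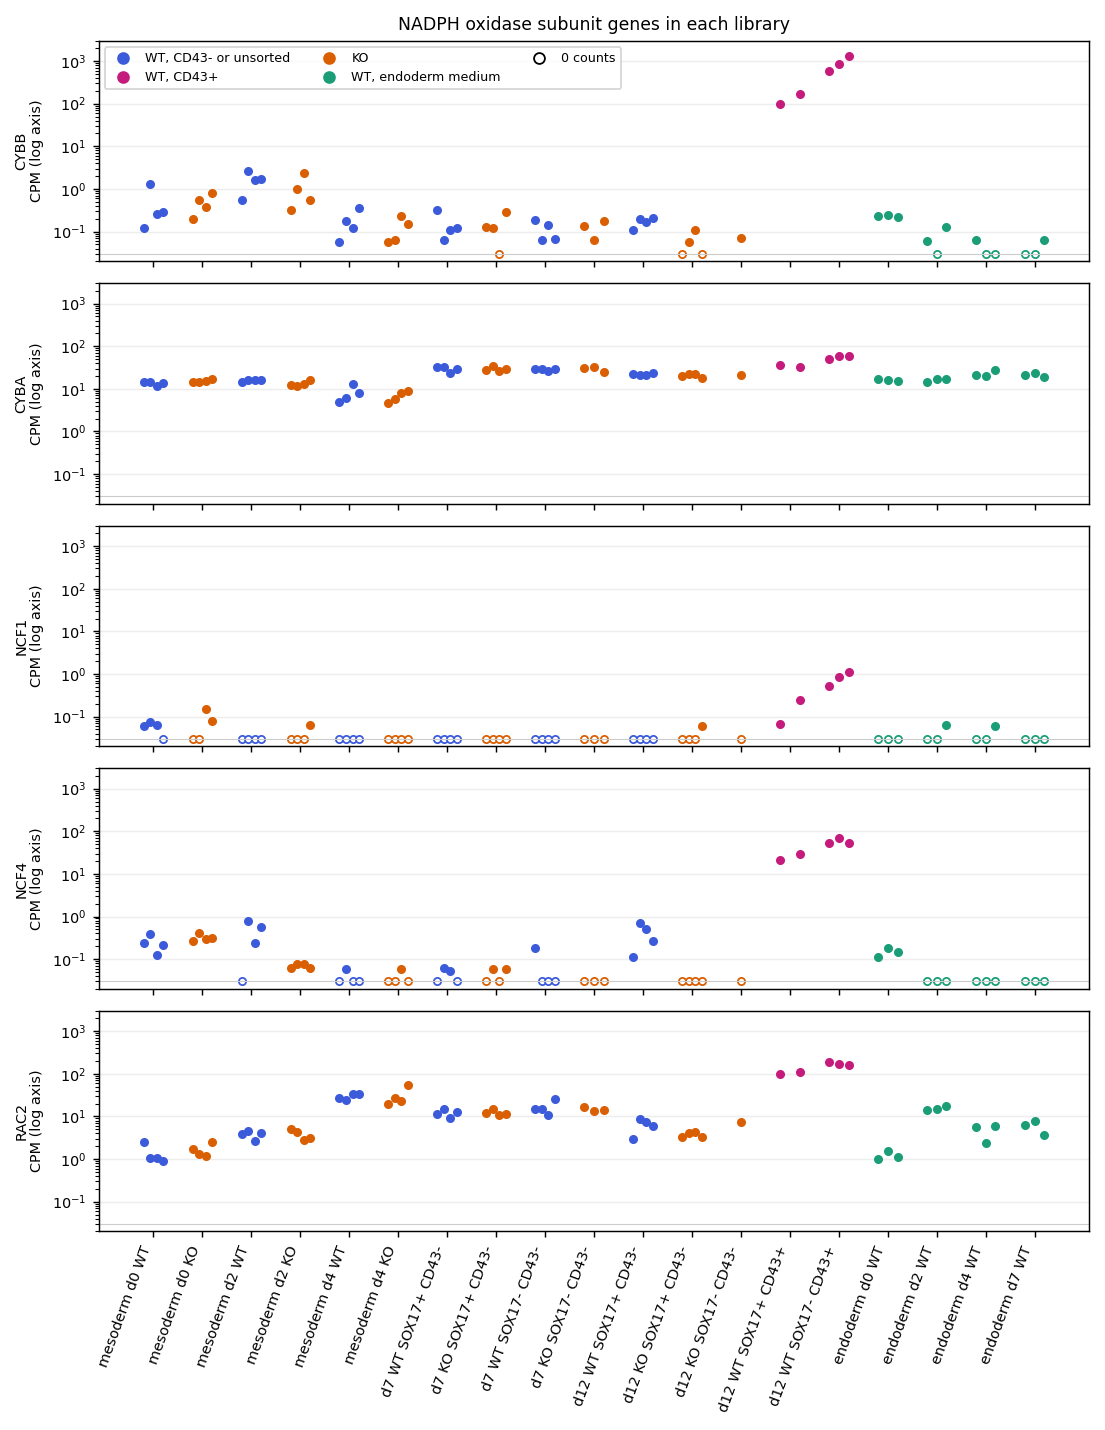
CPM of each of the 5 genes in every library, by group on the horizontal axis and on a log axis, with open points at the base line for libraries with 0 counts. All 5 genes peak in the CD43+ groups of day 12, where CYBB reaches 1301 CPM and NCF1 only 1.13.

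Per kilobase of the gene lengths behind the deposited values, the subunits were far from equal. Those lengths are not stated, and the order of genes at similar levels depends on them. In CPM, which uses no length, NCF4 averaged 58.2 and CYBA 56.4 in SOX17- CD43+ cells. In RPKM (reads scaled to gene length and library size) recovered from the deposited log2 values, SOX17- CD43+ cells held 197 ± 83.0 of CYBB, 64.8 ± 3.46 of RAC2, 31.4 ± 5.40 of NCF4, 16 ± 1.90 of CYBA and 0.230 of NCF1 (mean ± SD, n = 3). In SOX17+ CD43+ cells RAC2 led with 38.2 ± 2.82 RPKM, before CYBB with 28 ± 9.87, NCF4 with 13 ± 2.85, CYBA with 9.35 ± 0.719 and NCF1 with 0.0412 (n = 2). There the gap between RAC2 and CYBB was about as large as the SD of CYBB, so their order is not firm. In WT SOX17+ CD43- cells the order was CYBA at 6.5, RAC2 at 2.43, NCF4 at 0.227 and CYBB at 0.038 RPKM, so that CYBA was present with almost no CYBB.

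**Figure D2:**
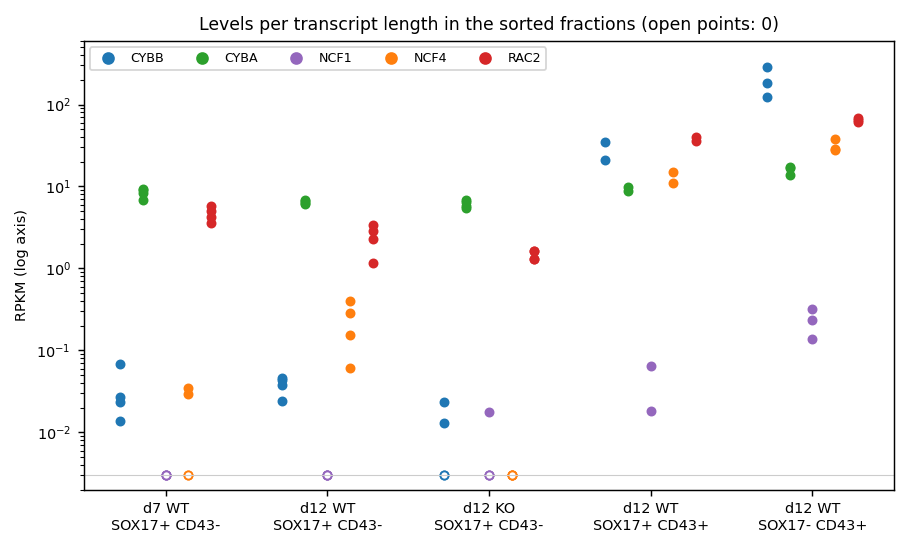
RPKM on a log axis for the 5 genes in sorted fractions of days 7 and 12, one point per library and open points for 0. CYBA and RAC2 lead in the CD43- fractions and CYBB leads in the SOX17- CD43+ fraction, at a mean of 197 RPKM.

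Between the 2 CD43+ fractions, all 5 genes were called higher in SOX17- than in SOX17+ cells, where 14.6% of genes were called higher. This count too is a description, since CYBB, NCF1 and NCF4 passed the filter on low counts only through these groups. As log2 differences in edgeR's quasi-likelihood fit, CYBB differed by 2.81 ± 0.28 (SE, adjusted p = 3.4e-09) and CYBA by 0.76 ± 0.15 (adjusted p = 0.000164). NCF4 differed by 1.26 ± 0.31 (adjusted p = 0.00277), NCF1 by 2.46 ± 0.76 (adjusted p = 0.0214) and RAC2 by 0.75 ± 0.28 (adjusted p = 0.0353). The SOX17+ CD43+ mean was 14.9% of the SOX17- CD43+ mean in CPM for CYBB, 18.9% for NCF1, 43% for NCF4, 61% for CYBA and 61.4% for RAC2. The same share was 34.5% for the leukocyte phosphatase PTPRC, 43.3% for SPI1 and 62.5% for SPN, which encodes CD43 itself.

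The calls of NCF4, NCF1 and RAC2 in this comparison were each lost without SOX17+ CD43+ replicate 1 (adjusted p = 0.063, 0.197 and 0.184), which leaves a lone library assumed to vary like the other groups. That of RAC2 was also lost without SOX17+ CD43+ replicate 2 (0.0805) or SOX17- CD43+ replicate 1 (0.0747), and those of NCF1 and RAC2 with runs of consecutive library numbers in the titles as a block (0.18 and 0.103). NCF1 was not called by DESeq2 either (0.383), nor with the replicate number as a block (0.0557). Some other blood-cell markers moved with the same contrast and some did not. Summed erythroid markers, at 20.6 to 22.1 CPM in SOX17+ and 6.72 to 23.4 in SOX17- CD43+ libraries, overlapped. So did lymphoid markers, at 22.47 to 22.51 and 20.8 to 40.5 CPM. Megakaryocyte markers were at 88.6 to 89.3 and 159 to 281 CPM. Summed neutrophil granule genes were 553 to 739 CPM in SOX17+ and 3184 to 3970 in SOX17- CD43+ libraries, summed monocyte genes 245 to 417 and 796 to 1304, and summed mast, basophil and eosinophil genes 28.3 to 29.2, with TPSAB1 at 0, and 253 to 650. Their part in the differences of the oxidase genes was not tested.

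SOX17- CD43+ cells of day 12 were also set against SOX17- CD43- cells of day 7 in WT, which differ from them in day as well as in CD43. All 5 genes were called higher, where 30% of all genes were. This count is a description, since CYBB, NCF1 and NCF4 passed the filter on low counts only through the CD43+ groups. NCF4 was at 0.183 CPM in its highest day 7 library and at 0 in the rest (edgeR, adjusted p = 1.3e-14). CYBB stood at 0.183, 0.0638, 0.143 and 0.0652 CPM in the day 7 cells, a log2 difference of 12.90 ± 0.38 (SE, edgeR, adjusted p = 5.5e-20). RAC2, at 15.1, 14.6, 11 and 26.1 CPM on day 7, differed by 3.38 ± 0.24 (adjusted p = 2.12e-12) and CYBA by 1.01 ± 0.12 (adjusted p = 3.58e-08). NCF1 had 0 counts in the day 7 cells, and its level on day 12 was at least 17.2-fold higher (adjusted p = 4.28e-05).

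The partners of the 5 genes did not move as a block. Of 5 genes tested from a list of further oxidase partners, 3 were higher and 1 lower in SOX17- CD43+ than in SOX17+ CD43- cells. Among all genes 32.3% were called higher and 33.9% lower. The median log2 difference of the 5 was 0.29, beside -0.02 over all genes. Among the 3, NCF1C is a pseudogene copy of NCF1 and not a partner, and the split of reads between the copies is uncertain. It had 0 counts in the CD43- cells and passed the filter on low counts only through the CD43+ groups. NCF1C was at least 25.6-fold higher in SOX17- CD43+ cells. RAP1A, a GTPase found with the membrane chains, was higher by 0.95 ± 0.17 and CYBC1, the chaperone of CYBB in the endoplasmic reticulum, by 0.29 ± 0.11 on the log2 scale (SE, edgeR), though CYBC1 shares exons with HEXDC. RAC1, the widely expressed relative of RAC2, was lower by a log2 difference of -0.37 ± 0.14, and the proton channel HVCN1, which balances the charge moved by the oxidase, was not called (0.12 ± 0.17). In SOX17+ CD43+ cells 0 of the 5 were called against CD43- cells by edgeR, and 1 of them, NCF1C, had an unadjusted value below 0.05.

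The genes of other NADPH oxidases and their subunits were lower or not called. Of 6 tested genes, 0 were higher and 3 lower in SOX17- CD43+ than in SOX17+ CD43- cells, with a median of -1.49. In this comparison 32.3% of all genes were called higher and 33.9% lower. NOX4, an oxidase that needs only CYBA, averaged 3.16 CPM in CD43- cells and had 2 counts in SOX17- CD43+ cells, a ratio of 0.0128 (95% counting interval 0.00155 to 0.047). DUOX1, a peroxide-making oxidase of epithelia, was at 4.67 and 0.552 CPM, a log2 difference of -3.08 ± 0.29 (SE, edgeR). NOX3 had 49 counts in CD43- cells and 0 in SOX17- CD43+ cells, at least 12.1-fold lower. NOX1 (1.20 ± 0.64), NOXO1 (0.42 ± 0.42) and NOXA1 (0.09 ± 0.25, log2 ± SE) were not called. Against the same CD43- cells, 0 of the 6 was called in either direction in SOX17+ CD43+ cells.

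**Figure D3:**
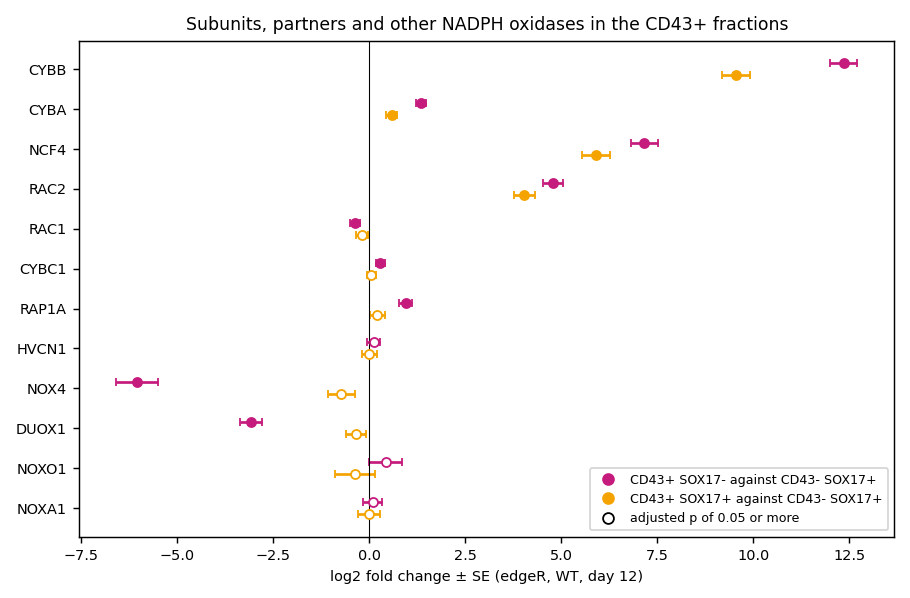
Log2 difference with its SE, by edgeR, between each CD43+ fraction and the SOX17+ CD43- cells of WT day 12 for oxidase subunits, partners and other oxidases, with open points where the adjusted p is 0.05 or more. CYBB, NCF4 and RAC2 lie far to the right in both fractions, while NOX4, whose value in SOX17- CD43+ cells rests on 2 counts, and DUOX1 lie to the left in that fraction.

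The wider pathway was taken from lists drawn up with earlier results of these data known. Counts are over the genes that passed the filter on low counts. A gene could pass it through the CD43+ groups alone, where it was high, so these counts are descriptions. Between SOX17- CD43+ and SOX17+ CD43- cells, 32.3% of all genes were called higher and 33.9% lower. Of 8 tested genes that signal to the oxidase, 8 were higher in SOX17- CD43+ than in SOX17+ CD43- cells (median log2 difference 4.19), among them PRKCD, a kinase of NCF1, by 5.32 ± 0.19 and the tyrosine kinases BTK by 5.01 ± 0.26 and SYK by 4.69 ± 0.32 (SE, edgeR). Of 8 myeloid transcription factors 8 were higher (median 4.96), with SPI1 by 6.46 ± 0.28, CEBPA by 7.39 ± 0.33 and IRF8 by 9.88 ± 0.32. Of 12 enzymes that make or remove superoxide and peroxide products 9 were higher and 0 lower (median 0.93), led by the neutrophil peroxidase MPO by 12.24 ± 0.33, then GPX1 by 2.44 ± 0.21 and CAT by 1.5 ± 0.17. Of 10 RAC regulators and relatives 6 were higher and 3 lower (median 0.86), the latter near the share of all genes. DOCK2, the main RAC exchange factor of blood cells, was higher by 5.55 ± 0.20, and TIAM1, an exchange factor of many adherent cells, differed by -2.85 ± 0.23.

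Against the same CD43- cells, the SOX17+ CD43+ fraction had 8 of 8 signalling genes and 7 of 8 myeloid factors higher. It also had 5 of 12 superoxide and peroxide enzymes and 5 of 10 RAC genes higher, with 2 of the RAC genes lower. Of all genes 15.5% were called higher and 10.9% lower. The 2 sets of comparisons share their control libraries, and the counts here are descriptions for the same reason of the filter.

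In the RUNX1 KO line the 5 genes could be followed up to the SOX17+ CD43- cells of day 12. Among these CD43- cells only CYBA and RAC2 pass the filter on low counts by themselves, so for CYBB, NCF1 and NCF4 a missing call says little. On day 7 none was called between KO and WT SOX17+ cells (0 of 5 by edgeR, also 0 at an unadjusted p below 0.05, 0 by DESeq2 and 0 by limma, background 0.0566%), nor between KO and WT SOX17- cells (0 of 5 by each of the same, background 0.0087%). CYBA was at 32.2, 31.9, 23.7 and 29 CPM in WT and 27.5, 33.8, 25.7 and 29.1 CPM in KO SOX17+ cells. RAC2 was at 11.3, 15.1, 9.38 and 13 CPM in WT and 11.8, 15.2, 11 and 11.3 CPM in KO SOX17+ cells. The ranges overlapped, and the log2 differences of KO from WT were 0.02 ± 0.11 for CYBA and 0.05 ± 0.23 for RAC2 (SE, edgeR). In SOX17- cells they were 0.05 ± 0.12 and -0.19 ± 0.25. CYBB was at most 0.320 CPM in any library of day 7, NCF1 had 0 counts in all of them and NCF4 at most 3.

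On day 12, NCF4 was called lower in KO than in WT SOX17+ CD43- cells, 1 of 5 genes against a background of 0.183% called lower. It had 0 counts in all 4 KO libraries and 26 in the 4 WT libraries, at least 8.98-fold lower (edgeR's quasi-likelihood test, adjusted p = 0.026). The groups did not overlap, but the lowest WT library had 2 counts. DESeq2 made the call too (adjusted p = 0.000869), limma did not (0.981), and in a fit of these groups alone NCF4 did not pass the filter on low counts. The call was lost without any of the 4 KO libraries or without WT replicate 2 or 3 (adjusted p = 0.0826 to 0.104).

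Leukocyte markers differed between the same groups. Summed pan-leukocyte CPM was 132 to 164 in WT and 128 to 138 in KO libraries, nearly all of it LAPTM5 at 120 to 141 and 122 to 133. Of the 5 markers 3 were called lower in KO and 0 higher (edgeR): PTPRC with 57 counts in WT and 1 in KO libraries, SPN at 1.55 to 3.43 and 0.173 to 0.530 CPM, and LCP1 at 7.13 to 16 and 2.02 to 4.49 CPM. Neutrophil granule genes summed to 0.613 to 1.36 CPM in WT and 0.508 to 0.917 in KO libraries, with ELANE and PRTN3 at 0 in both. Monocyte and macrophage genes summed to 43.7 to 76.6 CPM in WT and 46.2 to 145 CPM in KO libraries, and 2 of 6 tested were called lower in KO, CSF1R (-3.53 ± 0.48, log2 ± SE, edgeR) and LYZ (-2.99 ± 0.51). SPI1 was lower in KO cells by a log2 difference of -3.51 ± 0.46 (SE, adjusted p = 0.000101, edgeR). Of the 8 myeloid transcription factors 3 were lower in KO, SPI1, GFI1 (-4.43 ± 0.65) and RUNX1 (-2.05 ± 0.25). RUNX1 is the gene edited in the KO line, so its call is no separate result. Of the partner list, which includes the pseudogene copy NCF1C, 0 of 5 were called, and of the genes of other oxidases 0 of 6. The part of these markers in the NCF4 difference was not tested.

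RAC2 was at 3.01, 8.53, 7.28 and 5.88 CPM in WT and 3.37, 4.09, 4.29 and 3.30 CPM in KO SOX17+ CD43- cells of day 12. The lowest WT library lay below every KO library. The log2 difference was -0.71 ± 0.26 (SE, edgeR, adjusted p = 1, unadjusted below 0.05). CYBA was level between the lines at 20.8 to 23.3 CPM in WT and 18.3 to 22.6 CPM in KO (log2 difference -0.08 ± 0.11, adjusted p = 1). CYBB had 11 counts in WT and 3 in KO libraries, a ratio of 0.263 with a 95% counting interval of 0.0471 to 0.996, and was not called. NCF1 had 0 counts in WT and 1 in KO. The lone KO SOX17- CD43- library held 7.33 CPM of RAC2, 20.8 of CYBA, 0.0705 of CYBB and 0 counts of NCF4.

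The difference of the KO effect between days 12 and 7 was tested as an interaction and 0 of 5 genes were called by edgeR (background 0.00435%). The unadjusted edgeR value was below 0.05 for 2 of them, NCF4 and RAC2 (adjusted p = 1 for RAC2), and 0 were called by DESeq2 or limma.

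From day 7 to day 12 RAC2 and CYBA fell in the SOX17+ CD43- cells of both lines. In WT, 2 of 5 genes were called lower (background 9.23%) and NCF4 was called higher (background 8.57%). RAC2 fell by 0.94 on the log2 scale (SE 0.24, edgeR, adjusted p = 0.00651) and CYBA fell by 0.37 (SE 0.11, adjusted p = 0.0245). NCF4 went from 2 to 26 counts, a ratio of 13.1 with a 95% counting interval of 3.29 to 114 (adjusted p = 0.0048), and did not pass the filter in a fit of these groups alone. In the same comparison 2 of 5 pan-leukocyte markers were called higher, PTPRC and CORO1A, as were 2 of 6 monocyte and macrophage markers, CSF1R and ITGAM, and in KO 0 of either list were called higher. Their part in the NCF4 difference was not tested. In KO, 2 of 5 were called lower (background 7.29%): RAC2 fell by 1.70 (SE 0.25, adjusted p = 2.81e-05) and CYBA fell by 0.46 (SE 0.11, adjusted p = 0.00602). The WT call of CYBA was lost without a filter on low counts (adjusted p = 0.0869) and when WT replicate 2 or 3 of day 12 or replicate 1, 2 or 4 of day 7 was left out (0.0531 to 0.092).

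On day 7 CYBA and RAC2, the members with enough counts, were not called between SOX17+ and SOX17- cells. Between SOX17+ and SOX17- cells 0 of 5 were called in WT (background 1.6%) and 0 of 5 in KO (background 0.67%) by edgeR, and 0 by DESeq2 or limma. RAC2 in WT was the sole gene with an unadjusted p below 0.05, at 9.38 to 15.1 CPM in SOX17+ and 11 to 26.1 CPM in SOX17- cells (log2 difference -0.47 ± 0.23, SE, edgeR adjusted p = 0.431), and in KO there was none.

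In unsorted mesoderm cultures RAC2, CYBA and CYBB each had their own course, and NCF1 and NCF4 were too low to be tested. RAC2 in WT was at 2.55, 1.06, 1.07 and 0.882 CPM on day 0, at 3.87, 4.63, 2.68 and 4.02 CPM on day 2 and at 27.5, 24.2, 33.4 and 33 CPM on day 4. No 2 days overlapped. RAC2 rose by a log2 difference of 1.37 ± 0.37 from day 0 to day 2 (SE, edgeR, adjusted p = 0.00457) and of 2.96 ± 0.34 from day 2 to day 4 (adjusted p = 3.15e-07). Summed pan-leukocyte markers were 58.2 to 196 CPM on day 2 and 55.3 to 217 CPM on day 4 in the same libraries, with PTPRC at 0 on day 4, and 3 of the 4 tested were called higher on day 4. Summed endothelial markers went from 128 to 187 CPM on day 2 to 1422 to 2072 CPM on day 4. Of those tested 6 of 6 were called higher, where 25.9% of all genes were. The part of either in the rise of RAC2 was not tested. On day 4 RAC2 averaged 11.7 RPKM and CYBA 2.36, while on day 0 the order was the reverse, 0.580 and 4.18.

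CYBB in WT was at 0.121, 1.29, 0.252 and 0.294 CPM on day 0, at 0.553, 2.60, 1.66 and 1.68 CPM on day 2 and at 0.0583, 0.177, 0.123 and 0.351 CPM on day 4. Days 0 and 2 overlapped, and day 4 lay below day 2. From day 0 to day 2, 2 of the 3 genes tested were called higher, RAC2 and CYBB (background 22.2%), with CYBB at 1.72 ± 0.63 (log2 difference ± SE, edgeR, adjusted p = 0.0296). That call of CYBB was lost without replicate 1, 3 or 4 of day 0 or replicate 2, 3 or 4 of day 2 (adjusted p = 0.052 to 0.104). From day 2 to day 4, 1 of 3 was called higher (RAC2, background 25.9%) and 2 lower (background 25.5%). CYBB fell by 3.15 on the log2 scale (SE 0.71, adjusted p = 0.000847).

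CYBA was at 11.8 to 14.5 CPM on day 0, 14.4 to 16 CPM on day 2 and 4.84 to 13 CPM on day 4 in WT. It was not called from day 0 to day 2 (0.17 ± 0.21, log2 ± SE) and fell by 0.98 from day 2 to day 4 (SE 0.21, edgeR, adjusted p = 0.000575). NCF4 had 17 counts on day 2 and 1 on day 4, a ratio of 0.0439 with a 95% counting interval of 0.00105 to 0.28. Among the other oxidases NOX5, a calcium-driven enzyme that needs no partner, had 1 count on day 2 and 382 on day 4, a ratio of 285 with an interval of 50.8 to 11300. HVCN1 differed by -2.25 ± 0.17 and the exchange factor VAV1 by 3.08 ± 0.56 between days 4 and 2 (log2 ± SE, edgeR, called).

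The KO line was sampled on the same days. RAC2 was at 1.69, 1.35, 1.2 and 2.45 CPM on day 0, at 5.18, 4.36, 2.86 and 3.13 CPM on day 2 and at 19.6, 26.6, 23.1 and 55.6 CPM on day 4. On each day the KO and WT ranges overlapped for RAC2. Between KO and WT, 0 of 3 genes were called on day 0, 0 on day 2 and 0 on day 4 by edgeR, and 0 at an unadjusted p below 0.05, by DESeq2 or by limma (background 0% on each day). The log2 differences of KO from WT on day 4 were 0.11 ± 0.30 for RAC2, -0.19 ± 0.21 for CYBA and -0.41 ± 0.95 for CYBB (SE). CYBB in KO was at 0.195 to 0.790, 0.316 to 2.32 and 0.0577 to 0.231 CPM on days 0, 2 and 4, and CYBA at 14.2 to 16.7, 11.5 to 15.7 and 4.67 to 8.74 CPM. NCF4 had 4 counts in KO and 17 in WT on day 2, in overlapping libraries, and was not tested.

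**Figure D4:**
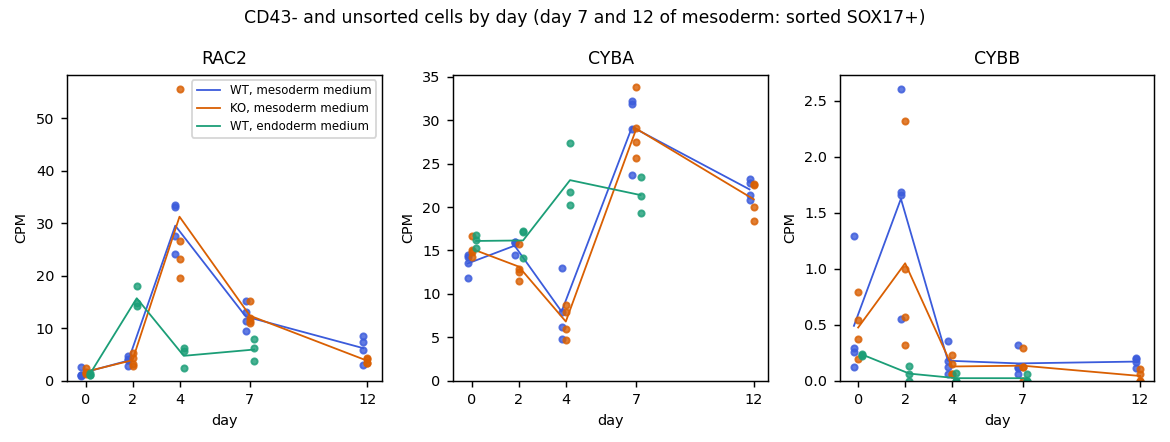
CPM of RAC2, CYBA and CYBB by day, one point per library, for WT and KO mesoderm cultures and WT endoderm cultures. The mesoderm points of days 7 and 12 are sorted SOX17+ CD43- cells. RAC2 is highest on day 4 in mesoderm and on day 2 in endoderm, while CYBA is lowest in mesoderm on day 4.

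Sorted SOX17+ cells of day 7 were set against unsorted day 4 cells in WT. CYBA was higher by 1.84 ± 0.26 (log2 ± SE, edgeR, adjusted p = 0.000141), 1 of 2 genes tested (background 31.7%), and RAC2 fell by 1.32 (SE 0.17, adjusted p = 6.97e-05, background lower 31.1%). Day, sorting and library series coincide here and cannot be told apart.

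In endoderm cultures RAC2 peaked early. It was at 0.977, 1.51 and 1.11 CPM on day 0, 14.2, 14.9 and 18 CPM on day 2, 5.63, 2.39 and 6.12 CPM on day 4, and 6.20, 7.91 and 3.63 CPM on day 7. Day 2 stood above every other day. The third day 4 library is numbered 68684 in its title, while the other endoderm libraries are numbered 31999 to 32010. The part of this in the day 4 values was not tested. RAC2 rose by 3.65 ± 0.36 from day 0 to day 2 (log2 ± SE, edgeR, adjusted p = 1.27e-06), the 1 of 2 genes called (background 28.7%), and fell by 1.60 from day 2 to day 4 (SE 0.30, adjusted p = 0.000753, background lower 20.2%). The RAC exchange factor PREX1 rose by 5.05 ± 0.14 and the engulfment adaptor ELMO1 by 4.44 ± 0.15 over the first interval.

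CYBA in endoderm was at 16.8, 16.2 and 15.3 CPM on day 0, at 14.1, 17.1 and 17.2 CPM on day 2, at 21.7, 20.3 and 27.3 CPM on day 4 and at 21.3, 23.5 and 19.4 CPM on day 7. The highest value of day 4 is that of the library numbered 68684. The rise from day 2 to day 4 was called (0.64 ± 0.14, log2 ± SE, edgeR, adjusted p = 0.00179, background higher 22.2%). From day 4 to day 7, 0 of 2 genes were called by edgeR, at an unadjusted p below 0.05, by DESeq2 or by limma (background 21.3%). CYBB went from 11 counts on day 0 to 3 on day 2 (ratio 0.26, 95% counting interval 0.0466 to 0.984). NCF4 had 7 counts on day 0 and 0 on every later day.

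On day 7, unsorted endoderm cultures held less RAC2 than sorted SOX17+ mesoderm-derived cells of WT, 1 of 2 genes tested (background lower 36.3%), with a log2 difference of -0.78 ± 0.24 (SE, edgeR, adjusted p = 0.0118). CYBA was at 19.4 to 23.5 and 23.7 to 32.2 CPM, which did not overlap but was not called (-0.20 ± 0.13, adjusted p = 0.191). Protocol, sorting and library series coincide in this comparison and cannot be told apart.

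Across the 19 group means of log2(CPM + 1), the 4 genes most like each member by Pearson's r were taken from 17505 genes. For NCF1 there were 17506, since NCF1 is itself below the level asked of these genes. For NCF4 they were PTPRC (0.998), P2RY8 (0.997), MPO (0.997) and LILRB2 (0.996), and for CYBB RHEX (0.995), IRF8 (0.995), NCF4 (0.994) and TYROBP (0.992). For NCF1 they were PRG3 (0.993), DCANP1 (0.992), LPO (0.992) and AL157955.1 (0.989), and its values rest mostly on 41 counts in SOX17- CD43+ cells. RAC2 was less closely matched, with FAM50B (0.936), KDM1B (0.931), DCAF12 (0.928) and ATP5MPL (0.925), and CYBA least, with ANAPC4 (0.909), UHRF1BP1 (0.903), ZFHX2-AS1 (0.900) and AP1G2 (0.900). These are descriptions with no test, since the group means share cell lines and library series and a few CD43+ points carry most of the range. Between CYBB and NCF4, r was 0.994 over 19 groups and 0.635 over the 17 groups without CD43+ cells. For CYBB and RAC2 the same values were 0.713 and -0.399, and for CYBB and CYBA 0.558 and -0.280.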

How the data were processed

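Total RNA libraries were made with a TruSeq kit, per the labels' protocols. The authors deposited raw fragment counts per Ensembl gene. They also deposited a log2 table of RPKM + 1 with TMM-scaled library sizes, per its file name. cutadapt 1.18, featureCounts, R 3.2.2 and the build GRCh38 are named, per the submitters' processing notes; the aligner, annotation release and strand use are not stated in the sources used here.

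Counts were tested with edgeR 4.0.16 in R 4.3.3 (TMM, filterByExpr set to 10 counts and a total of 15, quasi-likelihood F test, Benjamini-Hochberg over all genes of a fit, adjusted p below 0.05). Separate fits covered 28 sorted libraries (22978 genes), 24 unsorted mesoderm libraries (21612), 12 endoderm libraries (21542), the 8 of WT days 4 and 7 (20028) and the 7 of the endoderm and SOX17+ groups of day 7 (21165). Thus NCF1 and NCF4 were tested in sorted cells only, and CYBB not in the last 3 fits. A standard error is the log2 difference over the square root of F. CPM is the count scaled to a common library total. RPKM values undo the deposited log2, whose gene lengths are not stated.

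Against 0 counts a fold is a lower bound at 3 counts over the group, and with 1 to 3 counts a ratio is given with its 95% counting interval; both cover counting error only. Symbols and positions were matched by Ensembl identifier to GENCODE 29 (58039 of 58302 genes), and all 122 list genes matched. 1 oxidase partner is not reported here. In 85 pairs of libraries within groups, a chi-square per gene of 4.469 or more showed no library deposited a second time.

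Members and lists were chosen with earlier results of these data known. Named are the 5 members, the oxidase partners, the other oxidases with counts, up to 4 called genes of largest change from each other list, and the 4 genes most like each member (CPM of at least 1 in 2 libraries and a group mean of at least 5). Replicate numbers in the titles were taken to pair samples where every pair of libraries correlated above 0.1 in deviations from group means. That held for KO against WT in SOX17+ cells of day 7 (0.189 to 0.404), day 12 against day 7 in WT (0.132 to 0.219) and KO against WT on day 0 (0.232 to 0.774). Alternatives were DESeq2 1.42.0, limma 3.58.1 on the deposited log2 values, median-of-ratios size factors, no filter, only the compared groups, a replicate block, a block of consecutive library numbers, and leaving out each library. The procedure was tested on simulated data.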

Additional observations from a re-analysis of the deposited data

Results flagged for a closer look

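In 47 combinations of a gene and a group of 4 libraries, a library lying far from the others was found 8 times. Chance alone gives about 1 in 20, but in 5 of the 8 the rest of the group had 0 counts, which fixes the outcome, and that rate does not apply to them. On day 0 of WT mesoderm, CYBB was at 1.29 CPM in its highest library and 0.294 in the next, and RAC2 at 2.55 and 1.07 CPM. On day 2 of WT mesoderm, the lowest CYBA library was at 14.4 CPM and the next at 15.8. In the 5 cases with 0 elsewhere in the group, 1 library held 1 count, or 3 for NCF4 in SOX17- cells. For NCF1 these were at 0.0626 CPM in KO mesoderm of day 2 and 0.0612 CPM in KO SOX17+ CD43- cells of day 12. For NCF4 they were at 0.0590 CPM in WT mesoderm of day 4, 0.0577 CPM in KO mesoderm of day 4 and 0.183 CPM in WT SOX17- cells of day 7.

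The lone KO SOX17- CD43- library of day 12, in no comparison, held RAC2 at 7.33 CPM, above the highest of the 4 KO SOX17+ CD43- libraries at 4.29. With 1 library this was not tested.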

How the results depend on the processing

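Of 68 results for the 5 genes, 37 were called, and 29 of these were called under every alternative in which the gene was tested. Some genes were not tested in every alternative. NCF1 in SOX17- CD43+ cells against either CD43- group was tested in 11 alternatives, and CYBB in 14. The other 8 were lost under some, as given beside each in the report, 0 changed direction, and 0 uncalled results among the 68 were gained. The 68 leave out genes not tested in the main fit, and uncalled results with 3 counts or fewer in a group. Between the CD43+ fractions, the number of genes called was 3 of 5 with a block of consecutive library numbers and 2 to 4 when a library was left out. For KO against WT on day 12 it was 0 by limma, 0 with only the compared groups in the fit and 0 to 1 without a library. From day 0 to day 2 it was 1 to 2 without a library in WT mesoderm, and 2 without a filter in endoderm, where NCF4 entered. From day 2 to day 4 in WT mesoderm it was 3 in the main fit and 2 to 4 under other settings. The cause was not tested. With numbers as a replicate block no call of a member changed in the comparisons where numbers pair the samples, and elsewhere NCF1 between the CD43+ fractions was lost (adjusted p = 0.0557 by edgeR).

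Changes of sign were limited to results that were not called. As log2 differences, CYBA came to -0.001061 by limma for KO against WT SOX17+ cells of day 7. For SOX17+ against SOX17- KO cells it came to 0.02241 with a block of library numbers, 0.0006027 with the compared groups only and 0.0001395 with the replicate block. For endoderm day 7 against 4, CYBA came to 0.0174 by DESeq2 and 0.01734 by median-of-ratios. CYBB for KO against WT on day 0 was 0.05621 with the replicate block, and RAC2 on day 4 was -0.01247 by limma.

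Without a library, KO against WT ranged in SOX17+ cells of day 7 from -0.7192 to 0.5143 (CYBB), -0.06934 to 0.0700 (CYBA) and -0.07046 to 0.1712 (RAC2). In SOX17- cells it ranged from -0.2037 to 0.4594, -0.01691 to 0.1436 and -0.3497 to 0.1188 for the same genes. On day 0 it was -0.3532 to 1.034 (CYBB) and -0.01577 to 0.7401 (RAC2), on day 2 -0.1489 to 0.1465 (RAC2), and on day 4 -0.8892 to 0.09595 (CYBB), -0.3586 to 0.1362 (CYBA) and -0.3297 to 0.2835 (RAC2). SOX17+ against SOX17- ranged from -0.2114 to 0.6939 (CYBB) and -0.01846 to 0.1201 (CYBA) in WT, and from -0.4895 to 0.4969 and -0.1032 to 0.06751 in KO. CYBB from day 7 to 12 in WT ranged from -0.04834 to 0.7599, and CYBA in endoderm from -0.09265 to 0.0366 for day 2 against 0 and -0.08739 to 0.1406 for day 7 against 4.

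Counts over all genes moved most where few were called. KO against WT gave 13 genes in SOX17+ cells of day 7 (9 to 34 under other settings, 2 to 11 without a library), 2 in SOX17- cells (2 to 24, 1 to 2), 43 on day 12 (10 to 96, 28 to 52), 0 on day 2 (up to 143 with the compared groups only) and 0 on day 4 (up to 2, and up to 3 without a library). The interaction gave 1 (0 to 11), and SOX17+ against SOX17- gave 367 in WT (208 to 651, 166 to 407) and 154 in KO (159 to 612, 46 to 160). With a block of consecutive library numbers, which pair the libraries of KO against WT on day 7 and of SOX17+ against SOX17- in KO, the counts were 22, 7 and 376. Between CD43+ fractions it was 8619 (5683 to 9032), and SOX17+ CD43+ against CD43- gave 6086, or 3857 to 5727 without a library. Depth limits NCF1, NCF4 outside CD43+ cells and CYBB in CD43- cells, whose group totals were often under 30 counts.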
